A study of Mus musculus with 4 samples.

Results

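Mesenchymal and progenitor surface markers were followed in mouse embryonic fibroblasts (MEFs), the cultured connective-tissue cells of the embryo, labelled Mll1-/- or wild type (Mll1+/+), each with tumour necrosis factor alpha (TNF) or control solution. The 10 genes Cd34, Ly6a, Thy1, Pdgfra, Pdgfrb, Eng, Nt5e, Kit, Fap and Dpp4 were chosen by name, with earlier results of these data known. Of these, 8 had an entry among the 16612 named genes of the deposited table and 2, Kit and Thy1, had none, so they were not analysed here. Mll1, now named Kmt2a, encodes a methyltransferase for lysine 4 of histone H3. The 4 groups were cells labelled Mll1-/- with TNF, cells labelled Mll1-/- with control solution, wild-type cells with TNF and wild-type cells with control solution, each harvested after 4 hr. The dose was 10 ng/ml in the design text and the agent label, while the treatment protocol writes the figure with another unit. Cells from 3 separate treatments were pooled into 1 library per group, so no replicate spread exists and no difference was tested. The allele, and whether each genotype is more than 1 cell isolate, are not given in the labels, so genotype and any other difference between the cell populations cannot be told apart.

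These genes encode proteins that are used to sort mesenchymal stromal and progenitor cells. Cd34 is a sialomucin of haematopoietic, vascular and stromal progenitors, Ly6a (Sca-1) and Thy1 (CD90) are held in the membrane by a lipid anchor, and Pdgfra, Pdgfrb and Kit are receptor tyrosine kinases of 1 class. Eng (endoglin, CD105) is a co-receptor for ligands of the TGF-beta family, Nt5e (CD73) makes adenosine from AMP outside the cell, and Fap and Dpp4 (CD26) are related membrane proteases that cut after proline. In fibroblasts the PDGF receptors carry growth and migration signals, and Pdgfra and Ly6a are widely used to define connective-tissue cell subsets.

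Start-site sequences are shown for the 3 genes that were higher in the libraries labelled Mll1-/- by the largest read ratios. Mll1 binds CpG-rich DNA through its CXXC domain, but these RNA libraries do not measure its binding. Each is a 300-base RefSeq window on GRCm38.p6 that begins 250 bases before an annotated transcript start, so it covers upstream sequence and the first bases of exon 1. Capitals mark CpG dinucleotides. The Cd34 window is chr1:194938571-194938870 on the + strand, the Pdgfra window chr5:75152001-75152300 on the + strand and the Nt5e window chr9:88327359-88327658 on the + strand.
Cd34: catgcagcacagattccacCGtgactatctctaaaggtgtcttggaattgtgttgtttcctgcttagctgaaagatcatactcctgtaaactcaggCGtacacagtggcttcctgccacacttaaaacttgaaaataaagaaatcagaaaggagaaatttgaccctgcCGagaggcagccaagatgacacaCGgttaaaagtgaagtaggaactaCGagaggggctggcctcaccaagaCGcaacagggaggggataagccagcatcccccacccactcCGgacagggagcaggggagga
Pdgfra: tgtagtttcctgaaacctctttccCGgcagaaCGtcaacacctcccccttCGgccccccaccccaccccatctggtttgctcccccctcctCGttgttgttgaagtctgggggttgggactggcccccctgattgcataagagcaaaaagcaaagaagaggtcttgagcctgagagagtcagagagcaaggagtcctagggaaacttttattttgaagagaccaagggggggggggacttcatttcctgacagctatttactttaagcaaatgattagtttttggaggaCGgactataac
Nt5e: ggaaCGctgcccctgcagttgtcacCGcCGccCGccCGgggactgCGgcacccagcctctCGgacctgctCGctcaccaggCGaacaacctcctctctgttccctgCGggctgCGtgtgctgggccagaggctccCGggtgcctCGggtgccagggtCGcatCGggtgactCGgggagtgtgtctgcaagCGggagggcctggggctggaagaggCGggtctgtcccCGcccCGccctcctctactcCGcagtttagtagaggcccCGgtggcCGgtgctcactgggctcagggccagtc
The Cd34 window holds 7 CpG, which equals the median of 7 over the 32851 windows of the RefSeq table. Pdgfra has 5 CpG and Nt5e has 23, and 38.0% and 78.5% of windows hold fewer, against 47.9% for Cd34. The 3 genes do not share a CpG content, and any part of it in their levels was not tested. Of the other members whose window was read, Eng has 6 CpG and Dpp4 has 4. Kit, which has no entry in the table, has 20 and 21 in its 2 windows. The TATA letters TATAAA, searched on both strands, were found 0 times in these 3 windows and in 13.6% of all windows. The GC-box letters GGGCGG stand 4 times in the Nt5e window and 0 times in those of Cd34 and Pdgfra (35.7% of all windows hold at least 1).

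Levels are RPKM, reads divided by transcript length and by the library total, which allows genes to be compared per length. Whole reads behind the values were recovered, with library totals of 19306506 and 20081869 reads for the libraries labelled Mll1-/- with TNF and control, and 27977248 and 27728647 for wild type with TNF and control. Kmt2a itself stood at 1.66 and 2.02 RPKM in the libraries labelled Mll1-/- (TNF and control), against 2.11 and 1.85 RPKM in wild type. Its level therefore did not separate the labels, and since the allele is not given, reads outside a deleted part would check nothing. The TNF-responsive chemokine gene Cxcl1 had 68.0 RPKM with TNF against 9.14 RPKM without it in the libraries labelled Mll1-/-, and 320 against 18.6 RPKM in wild type.

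The 8 measured genes ran from abundant transcripts to none at all. Ly6a was the most abundant in all 4 libraries, at 346 and 249 RPKM in the libraries labelled Mll1-/- (TNF and control) and 195 and 221 RPKM in wild type. In the libraries labelled Mll1-/- the order per length was Ly6a and Cd34, then Pdgfrb, then Pdgfra, with Eng, Nt5e and Fap below 1 RPKM and Dpp4 listed at 0. In wild type Ly6a was followed by Pdgfrb, while Cd34, Pdgfra, Eng, Nt5e, Fap and Dpp4 were all below 1 RPKM. Without TNF, Cd34 ranked 748 and Ly6a 741 among 14386 genes in the library labelled Mll1-/-, so those neighbours were almost level (Cd34 to Ly6a ratio 0.989), whereas in wild type Cd34 ranked 14053.

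**Figure D1:**
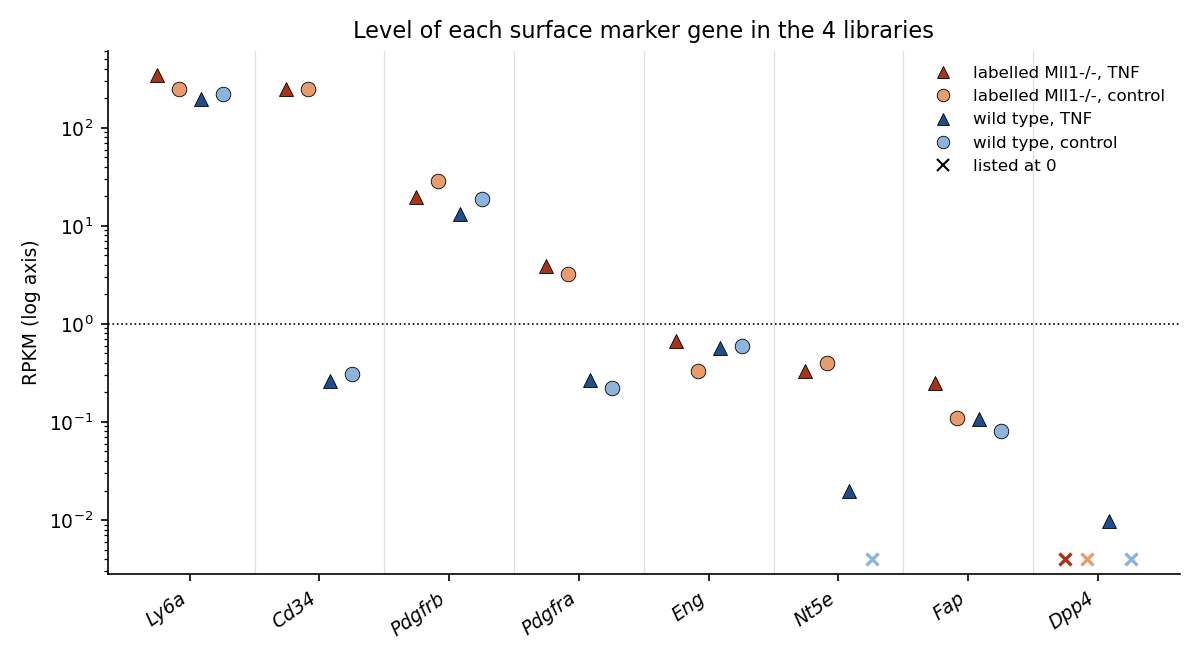
RPKM on a log axis for the 8 measured genes, 1 point per library (triangles TNF, circles control, crosses listed at 0), with a dotted line at 1 RPKM. Cd34 and Pdgfra sit above the line in both libraries labelled Mll1-/- and below it in both wild-type libraries.

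Comparisons were made on log2(RPKM + 0.5) over genes that reached 1 RPKM in at least 1 library, and a difference of 2-fold, 1 or more in log2, is called past the size rule. Only 4 members, Cd34, Ly6a, Pdgfra and Pdgfrb, passed that minimum, Cd34 and Pdgfra through the libraries labelled Mll1-/- alone. For those genes a difference was built into the filter. Without TNF, 2 of the 4, Cd34 and Pdgfra, were higher past the size rule in the library labelled Mll1-/- and 0 were lower, beside 7.11% higher and 7.99% lower among the 14386 genes and unnamed entries compared. With TNF the count was again 2 higher and 0 lower, beside 6.71% higher and 4.5% lower. Ratios of reads below carry 95% exact binomial (Clopper-Pearson) intervals, which cover counting error only.

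**Figure D2:**
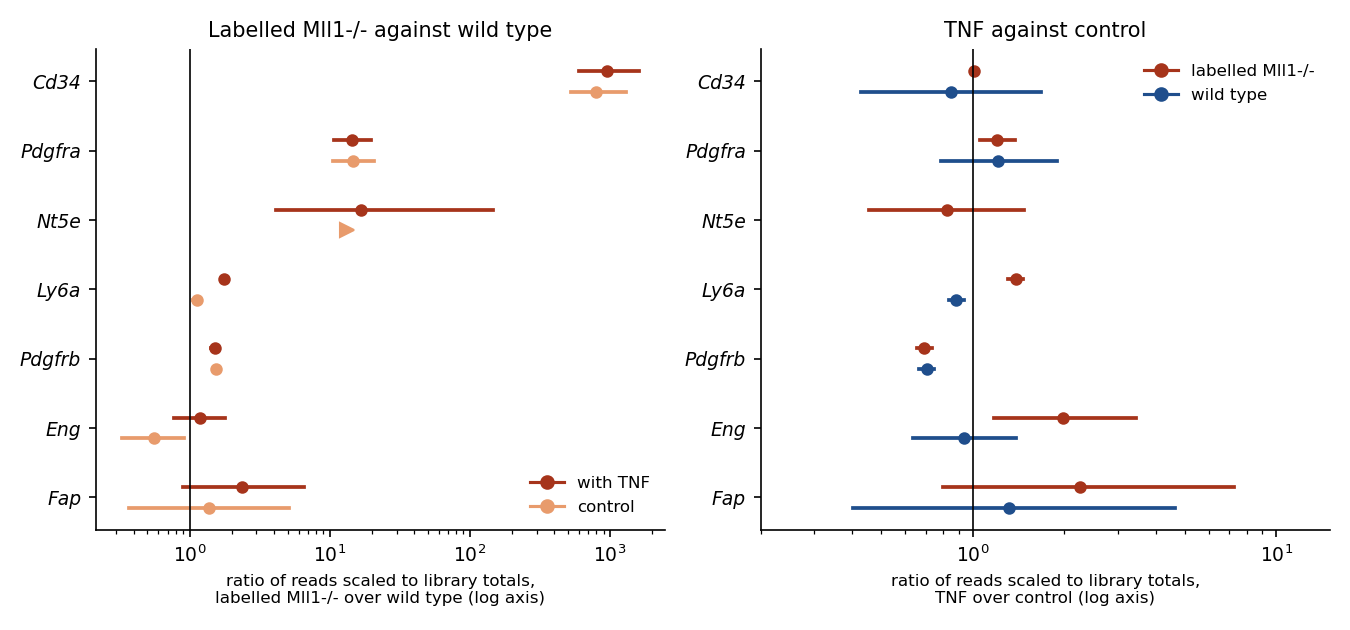
Ratio of reads scaled to library totals on a log axis, labelled Mll1-/- over wild type (left) and TNF over control (right), with 95% counting intervals as bars and a triangle for a bound against 0 reads. Cd34, Pdgfra and Nt5e lie far above 1 on the left, and Pdgfrb lies below 1 in both genotypes on the right.

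Cd34 had 11858 and 12186 reads in the libraries labelled Mll1-/- (TNF and control), against 18 and 21 reads in wild type. As levels these are 249 and 246 RPKM in the libraries labelled Mll1-/-, against 0.261 and 0.307 RPKM in wild type. Cd34 was high in both libraries labelled Mll1-/- and near the floor in both wild-type libraries. The read ratio was 955 with TNF (interval 604 to 1611) and 801 without (524 to 1295), and the log2 ratios on the RPKM + 0.5 scale were 8.36 and 8.26.

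Both Cd34 transcripts in the table showed the same contrast. The entry that is 156 bases longer had 239 and 236 RPKM in the libraries labelled Mll1-/- (TNF and control), against 0.259 and 0.275 RPKM in wild type. Over the shorter entry there were 4.81 and 4.94 reads per base in the libraries labelled Mll1-/-, while the longer entry held 248 and 239 reads more, which is 1.59 and 1.53 reads per added base. The entries are transcripts of 1 gene that share most of their sequence, so they are not separate measurements.

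Podxl encodes podocalyxin, a sialomucin of the Cd34 family. It had 5.78 and 7.33 RPKM in the libraries labelled Mll1-/- (TNF and control), against 0.355 and 0.392 RPKM in wild type, with read ratios of 16.3 (12.3 to 22.0) and 18.7 (14.3 to 24.8). Per length, the Podxl level was 0.0232 and 0.0298 of the Cd34 level in those libraries. Of the 6 listed genes for this family, for selectins and for Crkl, an adaptor that binds Cd34, 3 were compared. Without TNF 1 (Podxl) was higher and 0 lower in the library labelled Mll1-/-, beside 7.11% and 7.99% of all genes. The median log2 ratio was 0.46 beside -0.07 over all genes. With TNF Podxl was higher and Selp, the P-selectin gene, was lower (0.320 against 1.28 RPKM), beside 6.71% and 4.5% of all genes. The median with TNF was 0.31 beside -0.05.

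Pdgfra was scarce in wild type. It had 3.86 and 3.20 RPKM in the libraries labelled Mll1-/- (TNF and control), or 489 and 422 reads, against 0.267 and 0.220 RPKM, or 49 and 40 reads, in wild type. The read ratio was 14.5 with TNF (10.8 to 19.8) and 14.6 without (10.5 to 20.7), and the log2 ratios, held down by the added 0.5 RPKM, were 2.51 and 2.36.

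Pdgfrb, the receptor for PDGF-BB that marks pericytes and many fibroblasts, was present in all 4 libraries. It had 19.9 and 28.7 RPKM in the libraries labelled Mll1-/- (TNF and control), against 13.1 and 18.6 RPKM in wild type. The lower level of the libraries labelled Mll1-/- (19.9 RPKM, with TNF) was close to the higher wild-type level (18.6 RPKM, control). The read ratio was 1.52 with TNF (1.43 to 1.62) and 1.55 without (1.47 to 1.63), short of the size rule. The Pdgfrb level was 5.16 and 8.98 times that of Pdgfra in the libraries labelled Mll1-/- and 49.0 and 84.5 times in wild type, so the share of receptor transcripts that encode Pdgfra differed between the genotypes.

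The ligands of these receptors were found on both sides of the wild-type level. Of 5 listed genes, the PDGF ligands and Pdgfrl, 4 had an entry and 3 were compared, of which 2 were higher and 0 lower in the library labelled Mll1-/- both without TNF (median log2 1.08, beside -0.07 over all genes) and with it (1.17, beside -0.05). Over all genes compared, 7.11% were higher and 7.99% lower without TNF, and 6.71% higher and 4.5% lower with it. In all the lists used here, a gene such as Pdgfb, Podxl, Adora1, Alcam, Pdpn, Lepr, Flt3l, Selp or Enpp2 passed the minimum of 1 RPKM through the genotype in which it is high, so its difference was built into the filter. Pdgfb had 8.50 and 6.50 RPKM in the libraries labelled Mll1-/- (TNF and control), against 0.133 and 0.0732 RPKM in wild type, where the control held 6 reads. Pdgfc, which signals mainly through Pdgfra, had 11.9 and 13.3 RPKM in the libraries labelled Mll1-/-, against 5.01 and 6.03 RPKM in wild type. Its log2 ratio without TNF, 1.08, was 0.95 with the trend in transcript length removed, short of the size rule. Pdgfa, another Pdgfra ligand, went the other way, with 24.3 and 16.3 RPKM in the libraries labelled Mll1-/-, against 38.4 and 28.1 RPKM in wild type (log2 -0.65 and -0.77).

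Kit had no entry, but its ligand could be read. Kitl (stem cell factor) had 55.0 and 76.4 RPKM in the libraries labelled Mll1-/- (TNF and control), against 25.5 and 27.0 RPKM in wild type, with read ratios of 2.16 (2.07 to 2.25) and 2.83 (2.73 to 2.94). It was the 1 gene of 4 compared among the ligands and receptors related to Kit that was higher past the size rule at both treatments. Of all genes compared, 7.11% were higher and 7.99% lower without TNF, and 6.71% higher and 4.5% lower with it. Flt3l, the ligand of the related receptor Flt3, was lower without TNF (0.0926 against 1.01 RPKM) on 2 reads against 30. Csf1r, a receptor of the same class made by macrophages, had at most 0.0745 RPKM in any library.

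Nt5e was read almost solely in the libraries labelled Mll1-/-. It had 23 and 29 reads there (TNF and control), against 2 and 0 reads in wild type, which are levels of 0.333 and 0.403 RPKM against 0.0200 and 0 RPKM. These levels are below the minimum for the comparison of all genes. With 0 wild-type reads taken as 3, Nt5e was 13.4-fold higher without TNF, and the counting interval of the read ratio began at 10.2. With TNF the read ratio was 16.7 (4.12 to 146).

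Genes that make, sense or clear adenosine were higher in some cases and lower in others. Of 15 listed 13 had an entry and 8 were compared. In the library labelled Mll1-/- without TNF 2 were higher and 2 lower, beside 7.11% and 7.99% of all genes (median log2 -0.45, beside -0.07). With TNF 1 was higher and 3 were lower, beside 6.71% and 4.5% (median -0.34, beside -0.05). Adora1 encodes an adenosine receptor coupled to inhibition of adenylyl cyclase. It had 1.75 and 2.22 RPKM in the libraries labelled Mll1-/- (TNF and control), against 0 and 0 RPKM in wild type. With 0 reads taken as 3 it was 81.6-fold and 103-fold higher, and the counting interval with TNF began at 65.7. Adora2b, a receptor that stimulates the cyclase, had 1.63 and 1.03 RPKM in the libraries labelled Mll1-/-, against 7.19 and 5.77 RPKM in wild type (log2 -1.85 and -2.04). Cd38, an enzyme that breaks down NAD outside the cell, was higher past the rule without TNF (3.23 against 1.34 RPKM, log2 1.02), but not with the length trend removed (0.94). Enpp2 (autotaxin) was lower past it with TNF (0.240 against 1.08 RPKM). Adk, the kinase that returns adenosine to AMP inside the cell, had 28.8 and 29.0 RPKM, against 92.4 and 100.4 RPKM in wild type.

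Ly6a was high in both genotypes. Its 2809 and 2105 reads in the libraries labelled Mll1-/- (TNF and control) stand against 2296 and 2580 reads in wild type, at a recovered length of 421 bases. The annotated transcript is longer, so the true reads may be a whole multiple and the intervals are then too wide. Relative to wild type the read ratio was 1.77 with TNF (1.68 to 1.87) and 1.13 without (1.06 to 1.19). The highest level was that of the library labelled Mll1-/- with TNF. Without TNF the size of the difference depends on the correction for transcript length: the log2 ratio was 0.17 as deposited and 0.61 with the length trend removed. With Ly6a placed at 842 bases, a choice made after seeing the data, the second value was 0.45.

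Relatives of Ly6a in the same gene cluster share sequence with it, and the counting could have split reads among them. Ly6c1 had 133 and 97.9 RPKM in the libraries labelled Mll1-/- (TNF and control), against 99.97 and 115 RPKM in wild type, so the library labelled Mll1-/- was above wild type with TNF and below it without (log2 0.41 and -0.24, the second 0.04 with the trend in transcript length removed). Of 14 listed Ly6 and related anchored proteins 12 had an entry and 7 were compared. Ly6f was lower past the size rule without TNF (0.852 against 2.71 RPKM) and 0 were higher, beside 7.99% and 7.11% of all genes. The median log2 ratio was -0.29 beside -0.07 over all genes. With the length trend removed the log2 ratio of Ly6f was -0.97 in place of -1.25, short of the rule. Most of these transcripts are short, and the length class with a median of 768 bases had a median log2 ratio of -0.38 in this comparison. With TNF 0 were higher and 0 lower past the rule, beside 6.71% and 4.5% of all genes (median 0.34, beside -0.05).

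Eng was scarce in all 4 libraries. It had 0.664 and 0.334 RPKM, or 44 and 23 reads, in the libraries labelled Mll1-/- (TNF and control), against 0.563 and 0.599 RPKM, or 54 and 57 reads, in wild type. The library labelled Mll1-/- without TNF is the low one, at a read ratio to wild type of 0.557 (0.328 to 0.919), and with TNF the ratio was 1.18 (0.775 to 1.79). Its signalling partners were better measured. Acvrl1, the endothelial receptor that works with endoglin, was lower still (0.0714 and 0.0549 RPKM, against 0.148 and 0.219 RPKM in wild type), while the general TGF-beta receptor genes Tgfbr1 and Tgfbr2 lay between 11.6 and 31.5 RPKM in every library. Of 11 partners compared, Tgfbr1 was higher (24.8 against 11.6 RPKM) and Id1, a target of BMP signalling, was lower (22.8 against 66.1 RPKM) past the size rule in the library labelled Mll1-/- without TNF (median log2 0.09, beside -0.07). With the length trend removed the log2 ratio of Tgfbr1 was 0.79 in place of 1.07, short of the rule, and that of Id1 was -1.25. With TNF 0 of the 11 were past it (median 0.05, beside -0.05). Over all genes compared, 7.11% were higher and 7.99% lower without TNF, and 6.71% higher and 4.5% lower with it.

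Transcripts of the membrane proteases were close to absent. Fap, a marker of activated fibroblasts, had 13 and 6 reads in the libraries labelled Mll1-/- (TNF and control), against 8 and 6 reads in wild type. All levels were between 0.0803 and 0.250 RPKM, and the intervals of the genotype ratios included 1. Dpp4 was listed at 0 in both libraries labelled Mll1-/- and in the wild-type control, with 1 read in wild type with TNF. The intracellular and secreted relatives were expressed, and all 6 listed post-proline peptidases with an entry were compared. At either treatment 0 were higher and 0 lower past the size rule, with medians of -0.17 without TNF and -0.13 with it. Shares over all genes were 7.11% higher and 7.99% lower without TNF, and 6.71% and 4.5% with it. Prep, the cytosolic prolyl oligopeptidase, was the highest of them, at 120.4 and 123 RPKM in the libraries labelled Mll1-/- (TNF and control) and 135 and 136 RPKM in wild type.

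Other stromal surface and progenitor genes also stood apart between the genotypes, some higher and some lower. Of 18 listed 17 had an entry and 12 were compared. Without TNF 5 were higher and 2 lower in the library labelled Mll1-/- (median log2 0.24, beside -0.07 over all genes), and with TNF 5 were higher and 1 lower (median 0.39, beside -0.05). The shares over all genes compared were 7.11% higher and 7.99% lower without TNF, and 6.71% and 4.5% with it. Higher at both treatments were Cd44, the hyaluronan receptor, Cd24a, Abcg2, the drug efflux pump of side-population cells, Alcam (CD166) and the intermediate filament gene Nes. Alcam had 15.9 and 15.6 RPKM in the libraries labelled Mll1-/- (TNF and control), against 0.165 and 0.159 RPKM in wild type, and Nes had 48.0 and 61.4 RPKM against 5.38 and 5.18 RPKM. Pdpn, the podoplanin gene of fibroblastic reticular and other stromal cells, was the opposite, with 0 and 1 read in the libraries labelled Mll1-/- (TNF and control), against 544 and 400 reads in wild type, at least 125-fold lower with TNF. Lepr was lower past the rule without TNF (0.608 against 1.86 RPKM), while with TNF its log2 ratio was -0.98, or -1.02 with the length trend removed.

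**Figure D3:**
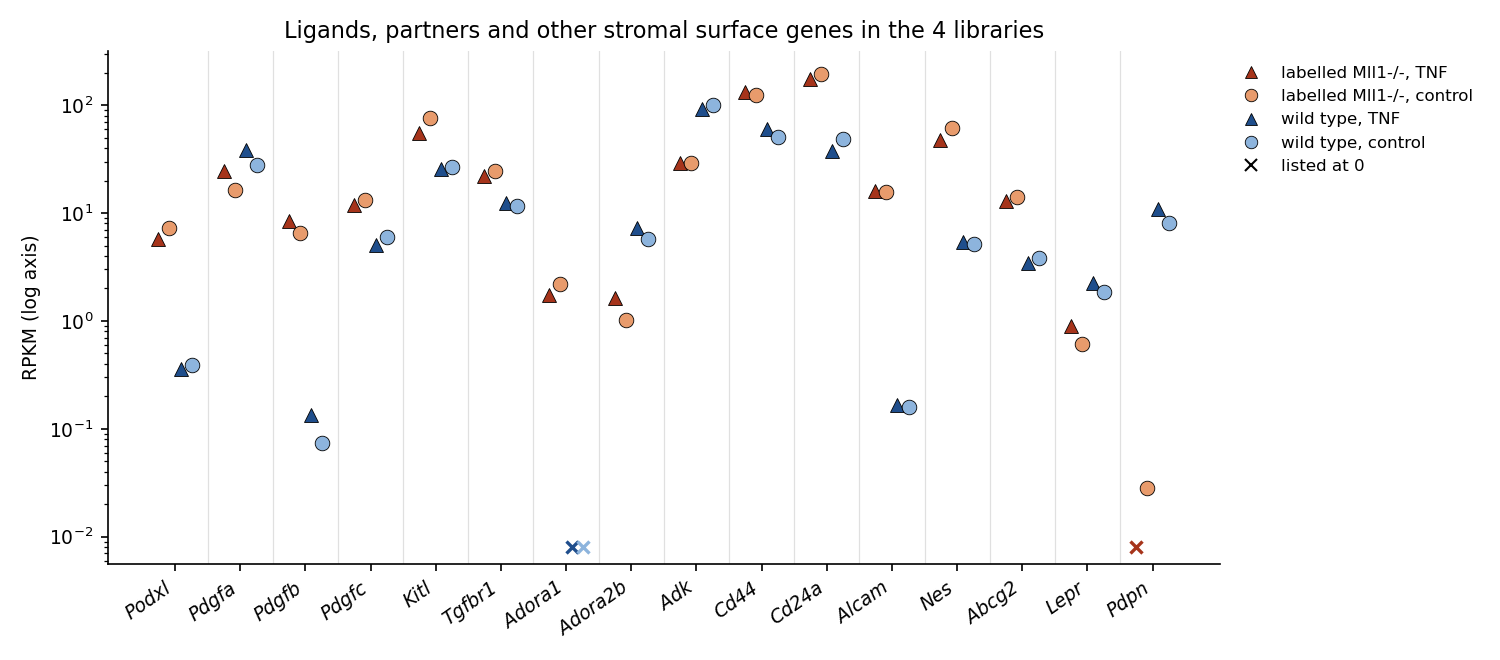
RPKM on a log axis for genes of the ligand, partner and stromal surface lists, 1 point per library (triangles TNF, circles control, crosses listed at 0). Podxl, Pdgfb, Adora1, Alcam and Nes are higher in both libraries labelled Mll1-/-, and Adora2b, Adk, Lepr and Pdpn are lower.

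Marker lists were read for the cell types that could carry these proteins. Of 11 fibroblast markers 10 had an entry, all at 1 RPKM or more in the libraries labelled Mll1-/- and 8 of them in wild type, with summed levels of 5202 and 4300 RPKM (labelled Mll1-/-, TNF and control) and 5170 and 5603 RPKM (wild type). Dcn (15.2 and 9.16 RPKM in the libraries labelled Mll1-/-) was listed at 0 in both wild-type libraries, and Col3a1 had 23.5 and 28.1 RPKM against 0.296 and 0.531 RPKM. Col1a1, Col1a2 and Fn1, which encode other matrix proteins, were also higher past the size rule at both treatments, so that 5 of the 10 were higher. Over all genes 7.11% were higher and 7.99% lower without TNF, and 6.71% higher and 4.5% lower with it. Dcn and Col3a1 passed the minimum of 1 RPKM only through the libraries labelled Mll1-/-, so their difference was built into the filter. Twist2 and S100a4 went the other way without TNF (12.0 against 28.3 RPKM and 1332 against 2934 RPKM), while with TNF 0 were lower past the rule. With the length trend removed the log2 ratio of S100a4 was -0.74 in place of -1.14. Haematopoietic markers were near 0: 8 of 15 had an entry, 0 reached 1 RPKM, and the sum was 0.566 and 0.315 RPKM in the libraries labelled Mll1-/- and 0.386 and 0.506 RPKM in wild type. Endothelial markers also had 8 of 12 with an entry and 0 at 1 RPKM, with sums of 0.293 and 0.268 RPKM in the libraries labelled Mll1-/- and 0.928 and 0.865 RPKM in wild type. Of the endothelial sums the larger share was Cdh5 in wild type (0.866 and 0.748 RPKM), and Pecam1 had at most 0.0159 RPKM in any library.

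Lists for further cell types were read as well. Mast cell (3 of 7 with an entry), epithelial (6 of 7) and skeletal muscle (1 of 5) markers had 0 at 1 RPKM in any library. Mural markers had 7 of 9 with an entry and sums of 196 and 184 RPKM in the libraries labelled Mll1-/- and 98.5 and 110 RPKM in wild type, nearly all of it Acta2. The pericyte genes Cspg4 (1.36 and 1.33 against 5.80 and 5.35 RPKM) and Notch3 (0.228 and 0.251 against 2.82 and 3.67 RPKM) were lower in the libraries labelled Mll1-/-. Des, the desmin gene, was higher past the size rule at both treatments (2.99 and 3.78 against 0.975 and 1.28 RPKM), and Acta2 was higher past it with TNF (189 against 87.3 RPKM). Among all genes compared 7.11% were higher and 7.99% lower without TNF, and 6.71% and 4.5% with it. Adipocyte-lineage markers held 1 gene at 1 RPKM, Pparg, at 8.34 and 10.97 RPKM in the libraries labelled Mll1-/- (TNF and control) and 14.6 and 17.8 RPKM in wild type. In bulk RNA, fewer cells that make a transcript and less of it per cell cannot be told apart, and the part of cell composition in these results was not tested.

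No member reached a 2-fold difference with TNF among the 4 compared. In the libraries labelled Mll1-/- 0 were higher and 0 lower past the size rule, beside 0.688% of all genes higher and 0.16% lower (0.848% together). In wild type 0 were higher and 0 lower, beside 0.521% higher and 0.0556% lower (0.577% together). For the difference between the genotypes' log2 TNF ratios the count was also 0, beside 0.758% higher and 0.424% lower. No p-value goes with these counts, since each group is 1 library. Differences below the size rule are given with their counting intervals.

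Pdgfrb was lower with TNF in both genotypes. In the libraries labelled Mll1-/- it had 2079 reads with TNF and 3121 without, a read ratio of 0.693 (0.655 to 0.733). In wild type the 1978 reads with TNF and 2784 without gave 0.704 (0.664 to 0.746). The log2 ratios of -0.52 and -0.49 were near the low end of all genes, with 1.56% of genes lower in the libraries labelled Mll1-/- and 0.952% lower in wild type. Between the genotypes the read-based log2 difference was -0.02, with an interval of -0.14 to 0.09. Its TNF ratio in the libraries labelled Mll1-/- depends on the scaling, from -0.34 with the trend in transcript length removed to -0.68 when libraries were scaled without their 20 most abundant genes, which itself shifts the median of that comparison by -0.16.

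Ly6a had TNF ratios on either side of 1. In the libraries labelled Mll1-/- the read ratio was 1.39 (1.31 to 1.47) and in wild type 0.882 (0.833 to 0.933), with log2 ratios of 0.47 and -0.18. Short transcripts as a class were higher with TNF in the libraries labelled Mll1-/-: the shortest of 10 equal length classes (median 436 bases) had a median log2 ratio of 0.31 there and -0.01 in wild type. With that trend removed, the Ly6a log2 ratios were 0.18 and -0.18, or 0.28 and -0.16 with Ly6a placed at 842 bases. The part of transcript length in the Ly6a value was not tested further. Several of its relatives had TNF ratios of the same kind. Ly6c1 had log2 TNF ratios of 0.44 in the libraries labelled Mll1-/- and -0.21 in wild type, Ly6c2 had 0.44 and -0.27, and Ly6e had 0.24 and -0.09. The read-based difference between the genotypes was 0.65 for Ly6c1 (0.53 to 0.77), 0.72 for Ly6c2 (0.54 to 0.90) and 0.32 for Ly6e (0.24 to 0.41). For Ly6i it was 0.23, with an interval of -0.04 to 0.50. With the length trend removed the differences were 0.44, 0.51, 0.25 and 0.02. The length class with a median of 768 bases had median log2 TNF ratios of 0.22 (labelled Mll1-/-) and -0.04 (wild type). The median difference over the 7 listed genes compared was 0.56, beside 0.03 over all genes. That list includes Plaur and Lypd1, which were above control with TNF in both genotypes. Ly6a was not alone in its opposite directions, which Ly6c1, Ly6c2 and Ly6e had as well. Ly6i (log2 0.08 in the libraries labelled Mll1-/- and -0.15 in wild type) pointed the same way. So did Ly6f, with 1.12 RPKM with TNF against 0.852 RPKM without in the former, and 1.92 against 2.71 RPKM in wild type. For Ly6i and Ly6f the read intervals in the libraries labelled Mll1-/- included 1. Shared reads among these genes cannot be told apart from separate differences.

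Pdgfra and Cd34 had few reads in wild type, which limits their TNF ratios there. Pdgfra had a read ratio of 1.21 (1.06 to 1.38) in the libraries labelled Mll1-/- and 1.21 (0.783 to 1.89) in wild type, the second on 49 and 40 reads. Cd34 had a ratio of 1.01 (0.987 to 1.04) in the libraries labelled Mll1-/-, on 11858 and 12186 reads, and 0.850 (0.427 to 1.67) in wild type, where 18 and 21 reads leave a wide interval. Eng had 44 reads with TNF and 23 without in the libraries labelled Mll1-/-, a ratio of 1.99 (1.18 to 3.45), against 0.939 (0.635 to 1.39) in wild type, and the log2 difference of 1.08 had an interval of 0.18 to 1.99. For Nt5e the ratio in the libraries labelled Mll1-/- was 0.825 (0.456 to 1.48), and for Fap it was 2.25 (0.799 to 7.23), so neither interval excluded 1.

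**Figure D4:**
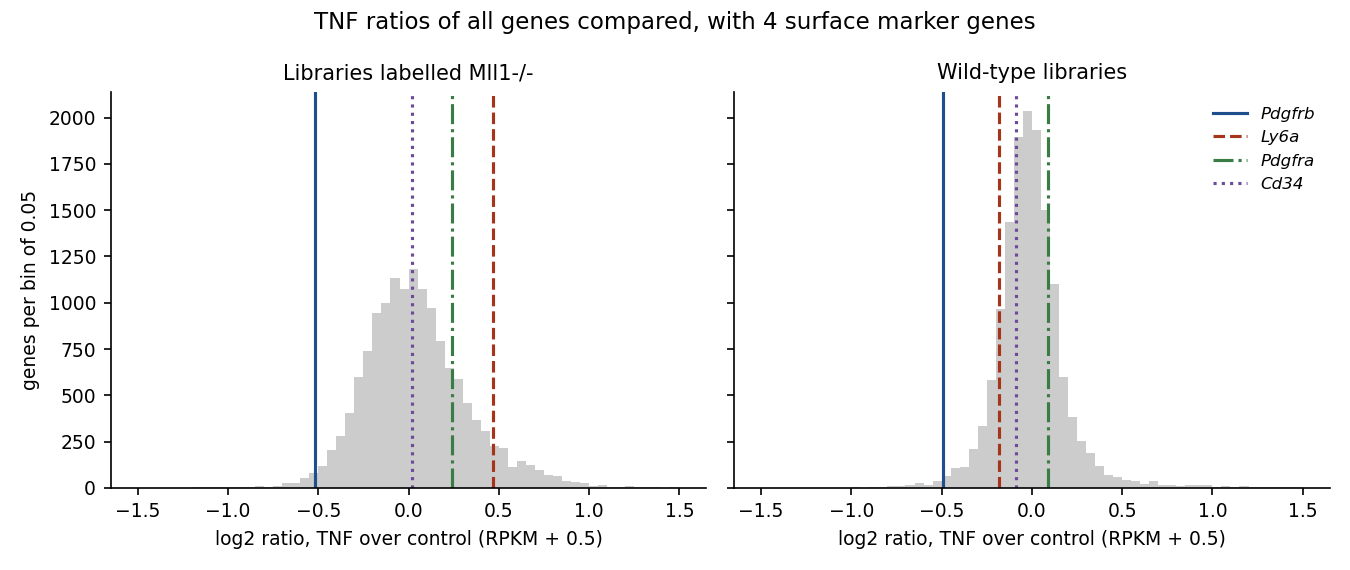
Distribution of log2 TNF ratios (RPKM + 0.5) over 14386 genes in bins of 0.05, for libraries labelled Mll1-/- (left) and wild type (right), with lines at 4 members. Pdgfrb lies in the low tail of both panels, and Ly6a lies above 0 on the left (0.47) and below 0 on the right (-0.18).

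Among the listed ligands, partners and stromal genes, 1 was past the size rule with TNF, Enpp2 (autotaxin) in wild type, at 1.08 RPKM against 0.245 RPKM. Over all genes 0.577% were past it in wild type and 0.848% in the libraries labelled Mll1-/-. Enpp2 passed the minimum only through wild type with TNF, so this difference was built into the filter. In the libraries labelled Mll1-/- Enpp2 had 15 reads with TNF and 3 without, a read ratio of 5.20 (1.47 to 28.0). The added 0.5 RPKM held its log2 ratio there down to 0.44. Between the genotypes the read-based log2 difference was 0.24 (-1.67 to 2.15). Pdgfa was above its control in both genotypes (24.3 against 16.3 RPKM in the libraries labelled Mll1-/-, 38.4 against 28.1 RPKM in wild type). Cd248 (endosialin), another surface protein of fibroblasts and pericytes, had the lowest log2 TNF ratio of the 12 stromal surface genes compared, in both genotypes, with 6.95 against 10.6 RPKM in the libraries labelled Mll1-/- and 11.5 against 18.2 RPKM in wild type. Kitl had 55.0 against 76.4 RPKM in the libraries labelled Mll1-/- and 25.5 against 27.0 RPKM in wild type.

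No compared gene next to Cd34, Pdgfra or Nt5e on the chromosome was past the size rule between the genotypes. Over all genes 15.1% were past it without TNF and 11.2% with it. Beside Cd34 on chromosome 1, Plxna2 (3.62 and 4.24 RPKM, labelled Mll1-/- with TNF and control, against 3.04 and 3.82 RPKM in wild type) and Cr1l (26.6 and 24.5 against 28.1 and 26.9 RPKM) were near level, and Camk1g and Cd46 stayed below 1 RPKM. Around Pdgfra on chromosome 5, where Kit and then Kdr follow it, Kdr had at most 0.0284 RPKM in any library and Chic2 was near level (15.3 and 12.7 against 16.9 and 13.9 RPKM). Near Nt5e on chromosome 9, Cep162, Tbx18, Snx14 and Syncrip had log2 genotype ratios between -0.42 and 0.55, with 0 of the 4 past the size rule. Past it were St6galnac6 near Eng (log2 1.08 with TNF and 1.15 without) and C1qtnf5 near Thy1 (1.38 and 1.40), both higher in the libraries labelled Mll1-/-. C1qtnf5 passed the minimum of 1 RPKM only through the library labelled Mll1-/- with TNF (1.02 RPKM). Its difference was therefore built into the filter. Of all genes compared, 6.71% were higher past the size rule with TNF and 7.11% without. The neighbours of Ly6a on chromosome 15, Ly6e, Ly6i, Ly6c1 and Ly6c2, are its relatives, and all 4 were above wild type in the library labelled Mll1-/- with TNF (log2 0.34 to 0.64). On chromosome 2, Dpp4 and Fap lie in a stretch in which Ifih1, Gca and Tbr1 were also below 1 RPKM in every library.

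The profiles most like those of Cd34 and Pdgfra were found by the distance between the 4 log2 values, each centred on its mean, over 11114 named genes. Closest to Cd34 were the chemokine gene Cxcl12 (distance 1.95), the cell adhesion gene Cadm1 (1.96) and Ramp3 (2.35), a partner of calcitonin-type receptors. These distances are large, since few genes differed as much as Cd34 did. Closest to Pdgfra were Scg5 (0.07), Artn (0.07), which encodes a ligand of the GDNF family, and the protease gene Ctsc (0.08). In wild type (TNF and control) Artn was listed at 0 and 0 RPKM and Ctsc at 0.0145 and 0 RPKM. Pdgfra had 0.267 and 0.220 RPKM there. The added 0.5 RPKM makes such low levels alike, so these short distances do not mean equal ratios.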

How the data were processed

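RNA from 4 pooled MEF libraries, 1 per group, was sequenced. The authors deposited RPKM for 27344 RefSeq transcript entries, per the file headers. TopHat and DESeq are named in the submitters' processing notes, without version or role. For genome build, annotation, read counter and strand, the sources used here give nothing. No entry is 0 in all 4 libraries.

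Entries were named by accession (20849 through the RefSeq table on GRCm38.p6, 102 through GENCODE M21, 6393 unnamed), and the entry with the highest mean RPKM stood for a gene. Each RPKM is a whole number of reads times a step set by transcript length and library total. For 27341 entries (99.99%) 1 length gave whole reads in all 4 libraries within 0.0001 reads. The shortest such length was used unless a multiple lay within 10% of the GENCODE length, so reads can be lower bounds. Reads carry no molecular identifiers, so they are not independent molecules, and intervals cover counting error only.

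Log2 ratios used RPKM + 0.5 for genes that reached 1 RPKM in at least 1 library. The length trend was removed by lowess (statsmodels 0.14.6, fraction 0.3). Intervals came from scipy 1.17.1 in Python 3.11.15, and the scripts were tested on simulated data. The rule for named genes covered all 10 members and allowed the lists' genes past the size rule or, failing that, up to 2 highest and 2 lowest, the 2 nearest coding genes on each side, and the 3 most similar profiles. Not all genes it allowed are named. Acvrl1, Tgfbr2, Csf1r, Prep, Pecam1, Cdh5, Tyrp1, Pmel, Sox10 and Mitf were named after their values were seen. Members and lists were chosen with earlier results of these data known. Sequences are from RefSeq, and windows were read for 6 of the 10 members. Windows on chromosome 18, which holds Pdgfrb, were left out for the members, so Pdgfrb was not read.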

Additional observations from a re-analysis of the deposited data

Results flagged for a closer look

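Ly6a was picked out because its TNF ratio lay above 1 in the libraries labelled Mll1-/- (1.39, counting interval 1.31 to 1.47) and below 1 in wild type (0.882, 0.833 to 0.933). The difference of the log2 ratios was 0.65, and its read-based interval was 0.54 to 0.77. Each response rests on 1 pair of libraries, so the difference was not tested against replicate spread. With the length trend removed it was 0.36, or 0.44 if Ly6a is placed at 842 bases, a choice made after seeing the data. Ly6c1 and Ly6c2, relatives that may share reads with Ly6a, had like differences of 0.65 and 0.72. With the length trend removed they were 0.44 and 0.51. Ly6e and Ly6i had 0.32 and 0.23, or 0.25 and 0.02 with the trend removed.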

How the results depend on the processing

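Every count of members past the size rule kept its value under all 9 alternatives: pseudocounts of 0.1 and 1, median-ratio scaling, scaling without the 20 most abundant genes, the length trend removed, no minimum, a minimum of 3 RPKM, the longest entry per gene, and ratios of reads. Of 357 recomputed log2 ratios of members, 34 moved by more than the counting interval and 0 past the size rule changed sign. The Cd34 genotype ratio ranged from 7.56 to 9.65 in log2 without TNF and from 7.63 to 9.90 with it, and that of Pdgfra from 1.78 to 3.86 and from 1.94 to 3.85, mostly with the pseudocount. Without TNF the genotype ratio of Pdgfrb was 0.36 to 0.91 and that of Ly6a up to 0.61, over length correction and scaling. The Cd34 TNF ratio in the libraries labelled Mll1-/- was -0.15 without the 20 most abundant genes, a scaling that shifts the median of all genes by 0.29 and 0.11 for genotype without and with TNF, and by -0.16 for TNF in the libraries labelled Mll1-/-. No paired analysis was possible because each group is 1 library. Among the listed genes named, Pdgfc, Tgfbr1, Cd38, Ly6f and S100a4 were no longer past the size rule without TNF once the length trend was removed, and Lepr came past it with TNF. Depth limits Eng, Nt5e, Fap and Dpp4 most, at 57 reads or fewer per library.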

Other observations

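The melanocyte list held 1 gene that was lower in the library labelled Mll1-/- past the size rule without TNF, beside 7.99% of all genes. Tyr, the tyrosinase gene of pigment synthesis, had 1.90 and 1.34 RPKM in the libraries labelled Mll1-/- (TNF and control), against 4.06 and 3.44 RPKM in wild type, while Tyrp1, Pmel and Sox10 stayed below 1 RPKM in every library and Mitf had 1.92 and 2.08 RPKM against 1.12 and 0.953 RPKM. Of 7 listed melanocyte markers 5 had an entry and 2 were compared. The gene was singled out after its values were seen.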
